A study of Homo sapiens with 12 samples.

Results

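The genes described here were 41 named members of the MHC class I antigen presentation and interferon response pathways, taken by symbol from the 55765 gene symbols counted in each library of an RNA sequencing study of SH-SY5Y cells. They were taken from a list of names that was drawn up with earlier results of these data known, and all 41 symbols were present in the count files. SH-SY5Y is a human neuroblastoma line that takes on a neuron-like form when treated with all-trans retinoic acid (ATRA). All 4 groups received 10 μM ATRA for 7 days, and each group held 3 libraries. In the co-treatment experiment, H2O2 was given together with ATRA for 7 days or left out. In the pre-treatment experiment, H2O2 was given for 72 h before ATRA was added or left out. The H2O2 dose was written as 10 mM in the labels and as 10 μM in the study's methods. The line is 1 tumour-derived culture, and the labels do not say whether the 3 libraries of a group came from separately grown cultures, so p-values measure the spread between these libraries. In bulk RNA, fewer cells expressing a gene and less RNA per cell cannot be told apart.

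MHC class I molecules carry peptides from inside the cell to its surface, where cytotoxic T cells read them. The heavy chains (HLA-B, HLA-C, HLA-E, HLA-F) pair with the light chain B2M, the TAP1 and TAP2 transporter with TAPBP (tapasin) loads the peptides, and the immunoproteasome subunits PSMB8, PSMB9 and PSMB10 cut them. Interferons act through the receptors IFNAR1 and IFNAR2 (type I) or IFNGR1 and IFNGR2 (type II), and STAT2 with IRF9 carries the type I signal to the interferon-stimulated response element (ISRE) in target promoters. Neuroblastoma cells are known for low surface MHC class I.

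The ISRE is the DNA element that the targets share, so it was looked for in the RefSeq promoter windows of build GRCh38.p14, each reaching from upstream of a gene's start to just past it. The motif searched, on both strands, was 2 copies of TTTC with 2 bases of any kind between them. It occurred in 1255 of 35116 promoter windows (3.57%) and in at least 1 window of 19 of the 32 members with a window, including B2M, ISG15, OAS3 and IFI44. The STAT dimer site, TTC and GAA with 3 bases of any kind between them, likewise on both strands, occurred in 7.66% of all windows and in 10 of the 32 members, among them IRF1, IRF9 and OAS1. A match is a description of letters and not a bound site. The following 80 bases each, from the strand of the gene, are shown for these 4 members, with the ISRE letters in capitals. B2M, ISG15 and OAS3 are among the 4 members that passed a test below. IFITM2, which also passed, had no window, and IFI44 did not pass. B2M lies at chr15:44711338-44711417 (+), ISG15 at chr1:1013349-1013428 (+), OAS3 at chr12:112938296-112938375 (+) and IFI44 at chr1:78649709-78649788 (+). In B2M and ISG15 the capitals hold overlapping matches, and in B2M, ISG15 and OAS3 the matches are on the minus strand.
B2M: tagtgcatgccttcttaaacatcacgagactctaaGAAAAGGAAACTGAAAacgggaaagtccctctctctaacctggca
ISG15: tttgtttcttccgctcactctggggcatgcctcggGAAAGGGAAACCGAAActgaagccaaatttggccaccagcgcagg
OAS3: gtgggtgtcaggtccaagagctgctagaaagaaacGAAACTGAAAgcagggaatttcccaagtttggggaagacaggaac
IFI44: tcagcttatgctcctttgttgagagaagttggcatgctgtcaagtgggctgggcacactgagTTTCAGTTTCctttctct

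The libraries held 27576276 to 98287391 reads on genes. In the pre-treatment experiment, control replicate 3 stood apart from control replicates 1 and 2. For each read on a gene, it had 0.2 reads outside genes, while those controls had 0.8 and 0.83 and the libraries with H2O2 had 0.343 to 0.462. Small structured RNAs took 17.6% of its gene reads, against 1.63% and 2.95% in those controls and 13.3% to 15.1% with H2O2. In the 6 co-treatment libraries the 2 measures were 0.263 to 0.429 and 5.07% to 13.1%. Control replicates 1 and 2 thus had the highest values of all 12 libraries in the first measure. They had the lowest in the second. Control replicate 3 had the lowest in the first and the highest in the second. Which of these controls is typical was not tested. Each pre-treatment result is therefore given over all 6 libraries and over the 5 libraries without control replicate 3. The noradrenergic and neuronal markers of the line summed to 970 to 2220 and 1090 to 1580 CPM (read counts scaled to a common library size of 1000000) in every library. TH, 1 of the 7 noradrenergic markers, stayed below 1 CPM in each group (0.0104 to 0.263 CPM). Of 7 immune cell markers, 6 or 7 stayed below 1 CPM in each group, and their sum was 0.249 to 1.62 CPM. Of these, AIF1 lies in the stretch described next.

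The genes of the MHC itself were nearly unread in these files. Of the 41 members, 9 lie in a stretch of chromosome 6 from TRIM27 to ZBTB9, hg19 chr6:28870779-33425321, whose ends were set after the counts were seen. TAP1, PSMB8, PSMB9 and HLA-F were listed at 0 in all 12 libraries, although 686117187 reads fell on genes in all. A count of 0 allows up to 3 reads, or 0.00437 CPM, and this limit covers counting error only. Over the 12 libraries HLA-C had 32 reads, HLA-E 27, HLA-B 17, TAP2 14 and TAPBP 11. Of the 27 reads of HLA-E, 26 fell in the library of pre-treatment control replicate 3.

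The neighbours of these members were at the same level whatever their role. Of 165 protein-coding genes in the stretch, 155 (93.9%) had under 120 reads over 12 libraries, which is 10 per library on average, and 105 had none. In the flank of the same length before the stretch, 14 of 46 genes (30.4%) were under that level, and in the flank after it 14 of 57 (24.6%). RPS18, a protein of every ribosome, and PFDN6, a subunit of the prefoldin chaperone, were at 0. TUBB, a beta-tubulin, had 6 reads and ABCF1, a translation factor, had 1. The stretch as a whole held 12.7 to 19.2 reads for every 1000000 gene reads in each library, so that all 4 groups showed the same gap. Since genes that every cell uses were at 0 too, the values of the 9 members in the stretch cannot be read as absent expression, and no change in them could be tested. Neither the annotation used in counting nor the presence of alternative MHC haplotypes in the alignment index is given in the sources used here, and the cause was not tested. The plot of reads against distance from TAP1 shows the gap.

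**Figure D1:**
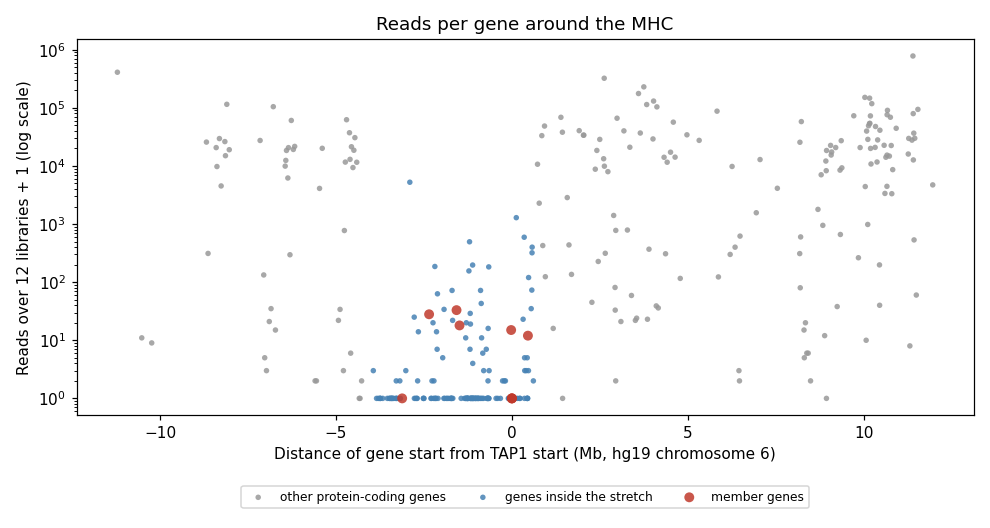
Reads over 12 libraries plus 1 (log scale) of each protein-coding gene against the distance of its start from the start of TAP1 in Mb on hg19 chromosome 6. Red points are members, blue points the other genes of the stretch and grey points genes outside it; 155 of 165 genes in the stretch lie under 120 reads, while most genes on both sides lie far above.

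Among the 32 members outside the stretch, the levels ran over more than 3 orders on the log10 scale. Levels between genes are compared as CPM per kb of exon, with exon lengths from the GENCODE v44 annotation lifted to hg19. Each length joins the exons of all annotated transcripts of a gene, for example 867 bases in ISG15 and 17984 in MX1. The order of genes therefore depends in part on this annotation, which need not be the one used in counting. B2M was highest with a mean of 25.7 and a range of 14.5 to 37.1 over the 12 libraries. IFNGR2, a chain of the type II receptor, followed at 21.6 (range 15.5 to 26.3), then IFI6, an interferon-stimulated mitochondrial protein, at 14.7 (8.78 to 20.8). IFNGR1 stood at 13.7, STAT2 at 11.5 and IRF3, the factor that RNA sensors activate, at 9.94. The ranges of neighbours in this order overlapped. All 12 libraries thus held RNA of the light chain, of both type II receptor chains and of the signal carriers. Of the type I receptor chains, IFNAR1 stood at 3.65 and IFNAR2 at 0.735, and the range of IFNAR1 (2.74 to 4.68) lay above that of IFNAR2 (0.562 to 1.18).

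Apart from IFI6 and the RNA sensor DDX58, the antiviral effectors had means of 1.28 CPM per kb or less. ISG15, a ubiquitin-like modifier, had a mean of 1.28 CPM per kb, OAS3 of 0.683 and OAS1 of 0.567, both being sensors of double-stranded RNA that make 2-5A. The IFIT proteins bind foreign RNA, and IFIT1 stood at 0.394, IFIT2 at 0.228 and IFIT3 at 0.0856. MX1, a GTPase that blocks virus replication, stood at 0.0196 and the RNA sensor IFIH1 (MDA5) at 0.0242, against 1.37 for the other sensor DDX58 (RIG-I). Without division by length, some orders were reversed. The mean of MX1 was 0.352 CPM against 0.127 for IFIH1, and that of OAS3 12.3 CPM against 1.11 for ISG15. OAS2 had 20 reads over 12 libraries, IFITM1 20 and XAF1 15, each with 4 or more libraries at 0. IFIT1, IFIT2 and IFIT3 overlap LIPA on the other strand, and OAS1, OAS2, OAS3 and ISG15 overlap antisense or other genes there. The same holds for further members, among them IFNGR2 (with TMEM50B), IRF3 (with BCL2L12), MX1 (with TMPRSS2) and IFITM2. The strand setting of the counting is not given in the sources used here, so reads of such pairs may be mixed. OAS2, IFITM1 and XAF1 passed the filter on low counts in no comparison, so nothing is said of their change.

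**Figure D2:**
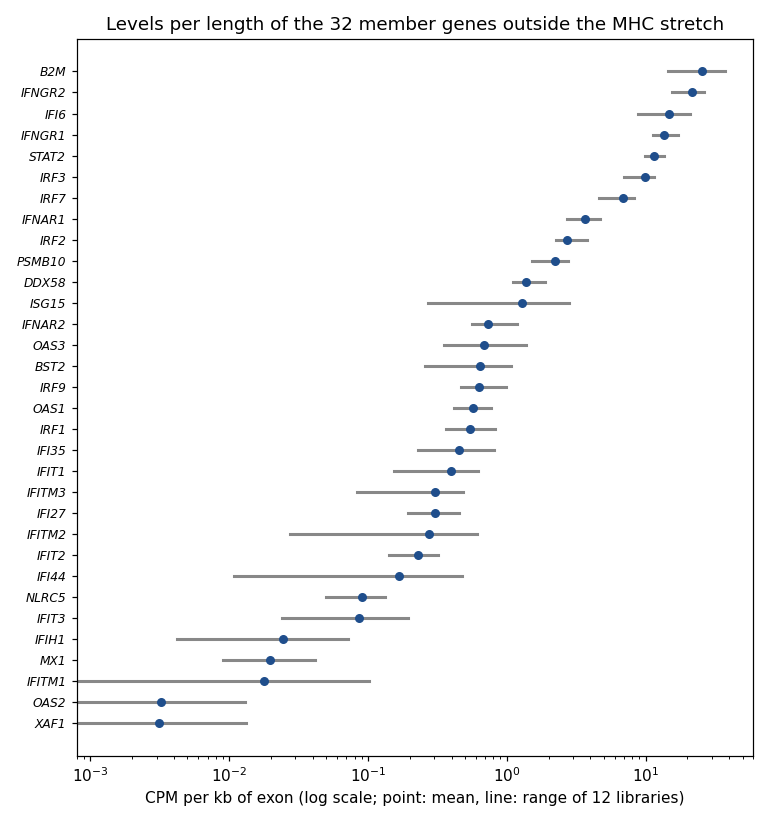
Mean level of the 32 members outside the MHC stretch in CPM per kb of exon (log scale, points) with the range over 12 libraries (lines); a line that reaches the left edge belongs to a gene with a library at 0. B2M leads at 25.7 and the lowest level is that of XAF1.

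In the co-treatment experiment no member changed by the test. Of the 41 members, 28 passed the filter, and 0 had an adjusted p below 0.05 in edgeR's quasi-likelihood test with Benjamini-Hochberg adjustment over 22089 genes. In the same test 0.598% of all genes were called. At an unadjusted p under 0.05, 3 of 28 members were counted, against 8.15% of all genes, and DESeq2, limma-voom and edgeR's exact test called 0 as well. The median log2 fold change of the 28 members was -0.10, and that of all genes was -0.001. In 5 of the 28 members the 3 treated libraries lay entirely above or below the 3 controls, against 14.0% of all genes.

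Those 5 members were IFNAR1, IFNAR2, IFIT2, ISG15 and IFI44. IFNAR1 had 66.0, 57.2 and 73.3 CPM in the controls and 51.2, 48.6 and 52.8 CPM in the treated libraries. Every treated library was below every control, with a log2 fold change of -0.36 ± 0.13 (SE, n = 3 against 3; adjusted p = 0.398 in edgeR's quasi-likelihood test). IFNAR2 had 11.1, 10.3 and 11.2 CPM in the controls and 7.79, 8.77 and 8.87 CPM with H2O2, again without overlap, and its log2 fold change was -0.36 ± 0.15 (adjusted p = 0.567, edgeR). IFNAR1, IFNAR2 and IFNGR2 are neighbours on chromosome 21. Both type I receptor chains thus had lower values in treated cells, but neither difference passed the adjustment.

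ISG15 had 0.734, 0.747 and 0.965 CPM in the co-treatment controls and 1.35, 1.08 and 1.61 CPM with H2O2. The treated libraries lay above the controls, and the log2 fold change of 0.73 ± 0.33 had an adjusted p of 0.6 (edgeR). IFIT2 had 0.612, 0.832 and 0.702 CPM in the controls and 1.10, 1.04 and 1.01 CPM in the treated libraries, with a log2 fold change of 0.56 ± 0.34 (adjusted p = 0.761, edgeR). IFI44, a cytoplasmic interferon-stimulated protein, had 4 to 10 reads per control library and 7 to 19 per treated library. It rests on few reads, and its log2 fold change of 0.72 ± 0.58 had an adjusted p of 0.841 (edgeR). The remaining tested members overlapped between the groups, from IFITM2 at -0.80 ± 0.48 to IFIT3 at 0.54 ± 0.56 on the log2 scale. B2M had 60.1 to 92.2 CPM in the controls and 73.6 to 93.3 CPM in the treated libraries, a log2 fold change of 0.11 ± 0.16.

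In the pre-treatment experiment over all 6 libraries, again no member changed by the test. Of 29 members that passed the filter, 0 were called, and 0.0242% of the 24743 genes tested were called. At an unadjusted p under 0.05, 3 of 29 members were counted, against 11.2% of all genes, and DESeq2, limma-voom and the exact test of edgeR called 0 members. These 3 were OAS3 (log2 fold change -0.95 ± 0.36, adjusted p = 0.383), IFITM2 (1.87 ± 0.75, adjusted p = 0.408) and IFI44 (1.75 ± 0.73, adjusted p = 0.429). The groups did not overlap for IFI44, PSMB10 and IFI27, which is 3 of 29 members against 16.4% of all genes.

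IFI44 (hg19 chr1:79115481-79129763) had its treated libraries above the controls in both experiments, with all 6 pre-treatment libraries counted. Its CPM was 0.345, 0.0219 and 0.274 in the pre-treatment controls and 0.964, 0.661 and 0.539 with H2O2. The control values rest on 19, 1 and 18 reads and the treated values on 93, 45 and 43 reads. PSMB10, the immunoproteasome subunit encoded outside the MHC, had 4.32, 3.75 and 3.83 CPM in the controls and 3.27, 3.12 and 2.46 CPM in the treated libraries. Its treated libraries were all lower, with a log2 fold change of -0.40 ± 0.24 (adjusted p = 0.568, edgeR). IFI27, an interferon-stimulated mitochondrial protein, had 1.23 to 1.86 CPM in the controls and 0.798 to 1.06 CPM in the treated libraries, a log2 fold change of -0.57 ± 0.33 (adjusted p = 0.552, edgeR).

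**Figure D3:**
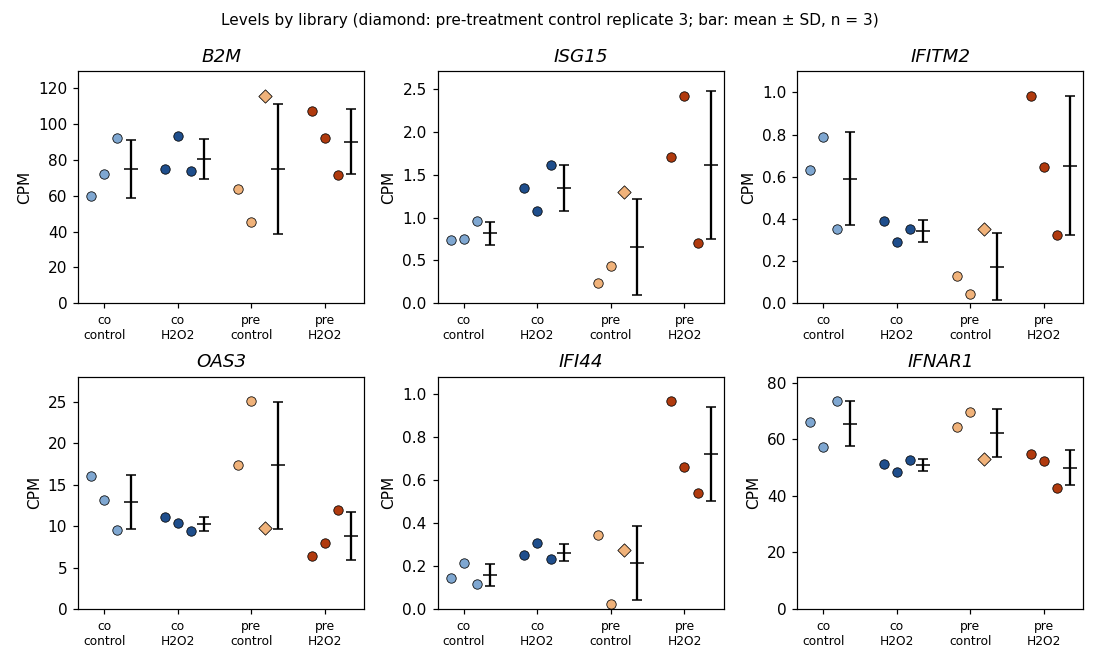
CPM of 6 members in each of the 12 libraries, by group, with the mean ± SD of the 3 libraries at the right of each group and pre-treatment control replicate 3 drawn as a diamond. For ISG15, IFITM2, OAS3 and IFNAR1 the diamond lies within the range of the treated libraries, for B2M (116 CPM) above them, and for IFI44 within the range of the other controls.

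Without control replicate 3, 4 of the 29 tested members passed the test. B2M, IFITM2 and ISG15 rose and OAS3 fell. With these 5 libraries 26.1% of all 26350 genes tested were called, 13.2% higher and 12.8% lower, so that the members' 4 of 29 was below the share of all genes. In 15 of the 29 members the treated libraries did not overlap with the 2 remaining controls, against 57.2% of all genes. The median log2 fold change of the tested members was 0.35 and that of all genes 0.01.

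B2M, the light chain of all class I molecules, lies at hg19 chr15:45003556-45011049. It had 63.7 and 45.3 CPM in control replicates 1 and 2, and 107, 92.1 and 71.4 CPM in the treated libraries. The lowest treated library was above both controls, and the log2 fold change was 0.80 ± 0.20 (adjusted p = 0.0233, edgeR). Control replicate 3 had 116 CPM, above all 3 treated libraries. In the co-treatment experiment the 6 libraries lay between 60.1 and 93.3 CPM, so that control replicate 2 of the pre-treatment experiment was the lowest of all 12 libraries and control replicate 3 the highest.

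ISG15 (hg19 chr1:936518-949920) had 0.236 and 0.438 CPM in control replicates 1 and 2, from 13 and 20 reads. The treated libraries had 1.71, 2.42 and 0.702 CPM, all higher, and the log2 fold change was 2.34 ± 0.58 (adjusted p = 0.0213, edgeR). Control replicate 3 had 1.30 CPM, within the treated range. The co-treatment controls, at 0.734 to 0.965 CPM, were also above control replicates 1 and 2.

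IFITM2 (hg19 chr11:303655-309397), one of the transmembrane proteins that hinder virus entry, had 0.127 and 0.0438 CPM in control replicates 1 and 2, which is 7 and 2 reads. The treated libraries had 0.984, 0.647 and 0.326 CPM from 95, 44 and 26 reads, all higher, with a log2 fold change of 2.94 ± 0.71 (adjusted p = 0.0187, edgeR). The filter asked for 0.12 CPM in 2 libraries, and control replicate 2 was below that level. IFITM2 thus passed the filter only through the treated libraries, the group where it is high. Control replicate 3, at 0.351 CPM, was within the treated range. IFITM1, IFITM2 and IFITM3 are near-identical neighbours on chromosome 11, and reads that fit more than 1 of them may have been left out or split, so their separate values are uncertain.

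OAS3 (hg19 chr12:113375856-113414265) had 17.3 and 25.0 CPM in control replicates 1 and 2, and 6.35, 7.99 and 11.96 CPM in the treated libraries. All treated libraries were lower, with a log2 fold change of -1.20 ± 0.27 (adjusted p = 0.0153, edgeR). Control replicate 3 had 9.71 CPM, within the treated range, and the co-treatment libraries had 9.41 to 16.0 CPM. The windows printed above hold ISRE letters both in this member, which fell, and in B2M and ISG15, which rose.

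The 4 calls changed with the libraries kept. Leaving out a second control leaves 1 control against 3 treated libraries, so that the spread comes from the treated libraries alone and the lone control is assumed to vary like them. A call lost there is no check of stability. Without control replicate 2 as well, 0 of the 4 calls stood, and the adjusted p was 0.167 for B2M, 0.125 for IFITM2, 0.079 for ISG15 and 0.134 for OAS3. Without control replicate 1, ISG15 missed the threshold (adjusted p = 0.116). Without treated replicate 1, OAS3 was the 1 member called, without treated replicate 2 IFITM2 was, and without treated replicate 3 the count was 10. All 4 members kept their direction in each of these fits. With library size alone as the scale, the median of all genes moved by -0.21 on the log2 scale, the share of calls that were higher went from 50.8% to 22.1%, and 2 members were called higher and 4 lower. B2M then missed the threshold (0.57, adjusted p = 0.0683).

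Measures of library quality moved with these members. The 2 controls that differed from the treated libraries in B2M, ISG15, IFITM2 and OAS3 were the 2 with 0.8 and 0.83 reads outside genes per gene read, and control replicate 3, with 0.2, was within or beyond the treated range in all 4. Over the 29 tested members, control replicate 3 lay within the treated range but not that of control replicates 1 and 2 in 14. It lay within both ranges in 3 (BST2, DDX58 and IFIT2), within that of the other controls alone in 3 (IFI44, IFI27 and PSMB10) and outside both in 9. On the log2(CPM + 0.1) scale, control replicate 3 was nearer to the treated mean than to that of control replicates 1 and 2 in 21 of the 29. These counts were not made over all genes. Leaving this library out took the share of all genes called from 0.0242% to 26.1%, so the counts cannot be read as particular to the members. The part of these measures in the result was not tested.

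**Figure D4:**
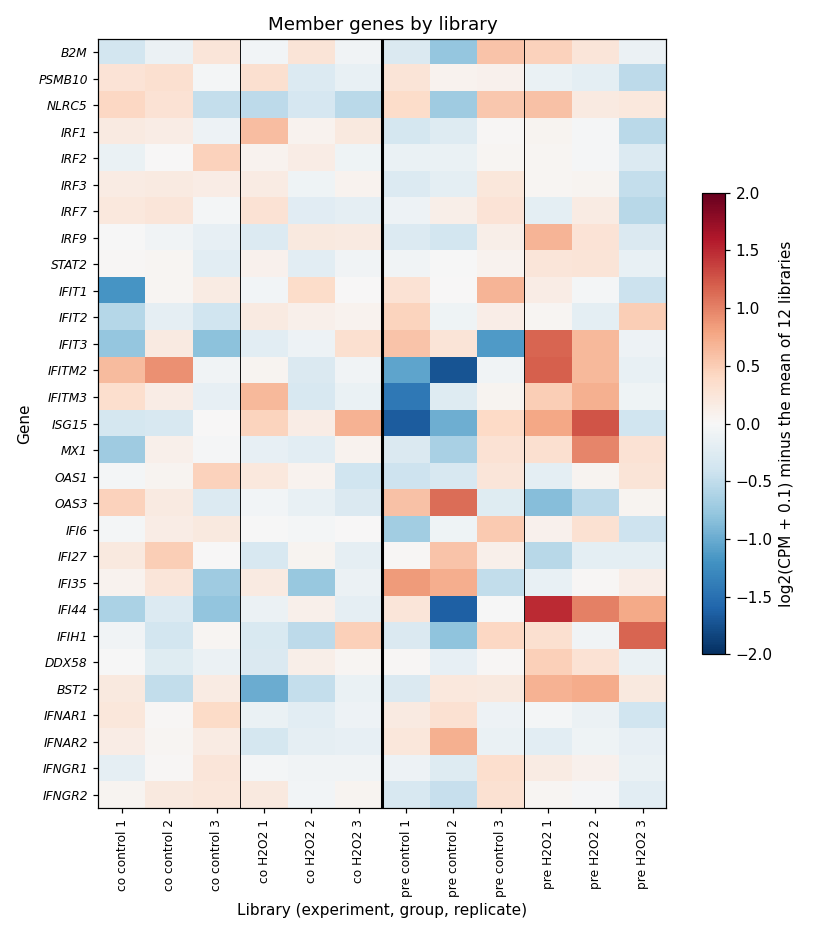
Level of each of the 29 members tested in the pre-treatment experiment, as log2(CPM + 0.1) minus its mean over 12 libraries, by library; red is above and blue below the mean, and the thick line parts the experiments. In ISG15, IFITM2 and IFITM3 pre-treatment control replicates 1 and 2 are below the mean, and in OAS3 they are above it.

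The receptors and factors gave no calls over 5 libraries either. IFNAR2 had 11.7 and 16.4 CPM in control replicates 1 and 2 and 8.63, 9.45 and 8.88 CPM in the treated libraries. They did not overlap, and the log2 fold change was -0.57 ± 0.18 (adjusted p = 0.0508, edgeR). IFNAR1 was at -0.35 ± 0.14 (adjusted p = 0.0901) and IFNGR2 at 0.40 ± 0.13 (adjusted p = 0.0533), both without overlap. Of the 4 receptor chains, 0 passed. In the co-treatment experiment all 4 had fold changes below 0, as did 18 of the 28 tested members and 11071 of all 22089 genes. There too, 0 members passed. Among the 7 transcription factors and co-activators, the log2 fold changes ran from -0.10 to 0.68 and the lowest adjusted p was 0.127, that of IRF9. NLRC5, the co-activator of MHC class I genes, was at 0.51 ± 0.39 over 5 libraries, 0.21 ± 0.42 over 6 and -0.65 ± 0.36 in the co-treatment experiment.

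**Figure D5:**
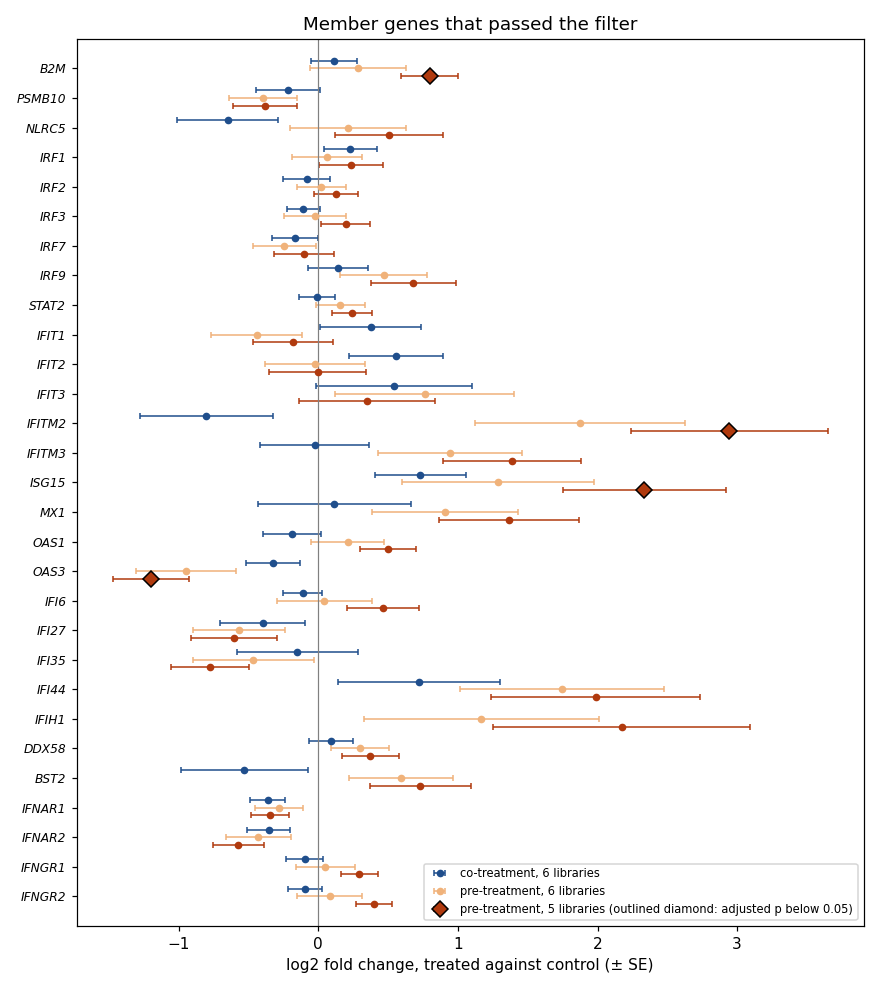
log2 fold change of treated against control libraries (± SE) for the 29 members that passed a filter, in the co-treatment experiment (blue, 28 members) and in the pre-treatment experiment over 6 (light orange) and 5 libraries (dark orange). Outlined diamonds mark the 4 members with an adjusted p below 0.05, all of them over 5 libraries: B2M, IFITM2 and ISG15 above 0 and OAS3 below.

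The responses to the 2 treatments were then compared in 1 fit with the difference as the contrast. Over 12 libraries, 0 of 28 members differed between the experiments, against 0.0287% of all genes, and 1 of 28 was counted at an unadjusted p under 0.05, against 8.94% of all genes. DESeq2 and limma-voom called 0 as well. Over the 11 libraries without pre-treatment control replicate 3, 1 of 29 members was called, against 8.02% of all genes, and 5 had an unadjusted p under 0.05, against 28.1%. The member called was IFITM2, whose log2 fold change was 3.69 ± 0.83 higher in the pre-treatment than in the co-treatment experiment (adjusted p = 0.02, edgeR). Over 12 libraries this difference was 2.65 ± 0.88 with an adjusted p of 0.511. In the co-treatment experiment IFITM2 had 0.632, 0.789 and 0.351 CPM in the controls and 0.391, 0.289 and 0.350 CPM in the treated libraries.

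Of 89 further genes of these pathways, 64 were tested in the co-treatment experiment and 1 rose, against 0.598% of all genes called. This was SAMD9L, an interferon-stimulated inhibitor of virus replication, with 0.571, 0.981 and 1.11 CPM in the controls and 2.77, 3.36 and 2.26 CPM with H2O2. The groups did not overlap, and the log2 fold change was 1.67 ± 0.32 (adjusted p = 0.0375, edgeR). The count of further genes called was 0 with library size alone and 0 when any library other than control replicate 3 was left out. Of 9 interferon genes, 1 reached the filter in this experiment. Over the 6 pre-treatment libraries 0 of 65 further genes passed, with 3 at an unadjusted p under 0.05, against 11.2% of all genes. DESeq2 and the other tools run called 0 too.

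Over 5 pre-treatment libraries, 16 of 67 further genes rose and 2 fell, against 26.1% of all genes called in this comparison, 13.2% higher and 12.8% lower. The total of 18 of 67 is thus near the share of all genes. Of 17 tested genes of antigen processing, 8 rose and 0 fell, led by the constitutive proteasome subunits PSMB7 (0.86 ± 0.11, adjusted p = 0.00199), PSMB5 (0.79 ± 0.11) and PSMB6 (0.75 ± 0.13) and the activator subunit PSME2 (0.80 ± 0.14). PSMB7 had 65.8 and 64.5 CPM in the controls kept and 107 to 116 CPM with H2O2, and the control left out, at 139 CPM, was again above them. Of 20 tested genes of signalling and sensing, 2 rose and 1 fell. SOCS3, a feedback inhibitor of cytokine receptors, rose (1.00 ± 0.23) and EIF2AK2, the kinase PKR, fell (-0.39 ± 0.10). IKBKE, a kinase that activates IRF3, also passed, but it had 0 reads in control replicates 1 and 2 and 0.103 to 0.213 CPM in the treated libraries. It met the filter through the treated libraries alone, and control replicate 3 had 0.0762 CPM. IKBKE stays in the counts given, but no rise is drawn from it. Of 29 other interferon-stimulated genes tested, 6 rose and 1 fell, among them UBE2L6, the conjugating enzyme of ISG15 (0.76 ± 0.12), TRIM21 (1.37 ± 0.27), IFIT5 (0.59 ± 0.14) and PML (-1.17 ± 0.22). The median of the 67 was 0.25 on the log2 scale, beside 0.01 for all genes. With library size alone as the scale, 9 rose and 5 fell.

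Markers of the cell states moved in the same comparisons. VIM (vimentin), a marker of the substrate-adherent mesenchymal state of neuroblastoma, had 5.76 to 9.85 CPM in the co-treatment controls and 15.3 to 17.8 CPM with H2O2, and 3.07 to 5 CPM in the 3 pre-treatment controls and 19.4 to 22.8 CPM in the treated libraries. It rose in both experiments (1.16 ± 0.21, adjusted p = 0.0272, and 2.42 ± 0.24 over 6 libraries, adjusted p = 0.0443, edgeR), and was the 1 of 8 listed mesenchymal markers that passed in either. Over 5 libraries, where 26.1% of all genes were called, YAP1 and CD44 rose and TNC fell. Of 6 tested noradrenergic markers, PHOX2A, GATA3 and DBH fell and ISL1 rose, and of 5 neuronal markers MAPT, which encodes tau, fell. CD14, 1 of 2 tested immune markers, fell too, from 1.20 and 1.49 CPM in control replicates 1 and 2 to 0.514 to 0.663 CPM, and control replicate 3 had 0.518 CPM. With control replicate 3 kept, 0 of the 6 noradrenergic, 0 of the 5 neuronal and 0 of the 2 immune markers tested were called. The part of these markers in the values of the members was not tested.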

How the data were processed

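Total RNA libraries (ribosomal RNA removed, stranded kit, paired ends) were made from 12 samples. Per the labels and methods, the authors checked reads with FastQC 0.11.8, trimmed them with cutadapt 2.10, aligned them to hg19 with HISAT2 2.1.0 and counted them per gene with HTSeq 0.7.2. The deposited values are raw counts per gene symbol. The strand setting and annotation are not given in the sources used here. The 5 closing HTSeq entries were left out of library sizes and tests. They held 40.0% to 59.9% of all reads. The authors' 2 comparison tables hold fold changes and p-values and were not used.

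Counts were fitted with edgeR 4.0.16 (quasi-likelihood F test, TMM factors, R 4.3.3), which replaced the exact test of the methods, in each experiment separately and as a difference between experiments. Genes needed the CPM of 5 reads in the smallest library in as many libraries as the smaller group (3, or 2 without control replicate 3), and an adjusted p below 0.05 (Benjamini-Hochberg over all genes tested) was called. CPM per library uses TMM factors over 12 libraries. DESeq2 1.42.0, limma 3.58.1 and other scalings, filters and left-out libraries were alternatives. Scripts were tested on simulated data. No 2 replicates agreed within sampling noise. Counting depth sets the precision of low genes, and limits at 0 cover counting error only.

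The members, the further pathway lists and the marker lists were chosen with earlier results of these data known. All 41 members enter the counts given, but not each is named. Named with values were members with an adjusted p below 0.05 and those whose groups did not overlap over all 6 libraries of an experiment. Members at an extreme of level, those with libraries at 0 and up to 4 further genes per list were named too. Members without overlap over 5 libraries alone were in part given by count only. Gene positions are hg19 from GENCODE v44, and promoter sequences are from RefSeq on GRCh38.p14, where 9 members had no window.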

Additional observations from a re-analysis of the deposited data

Results flagged for a closer look

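Over 11 libraries, 5 genes named here differed between the experiments by a test of the difference itself, edgeR's quasi-likelihood test of the pre-treatment minus the co-treatment log2 fold change. They were 1 of 29 members and 4 of 69 further genes, against 8.02% of all genes called. IFITM2 differed by 3.69 ± 0.83 (adjusted p = 0.02), SOCS3 by 1.26 ± 0.30 (adjusted p = 0.0252), PSME1, a proteasome activator subunit, by 0.79 ± 0.21 (adjusted p = 0.0378), PSMB7 by 0.76 ± 0.20 (adjusted p = 0.0351) and PSME2 by 0.62 ± 0.17 (adjusted p = 0.0416). With control replicate 3 of the pre-treatment experiment kept, 0 members and 0 further genes differed, and 1 member had an unadjusted p under 0.05. IFITM2 rests on 2 to 95 reads per library.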

How the results depend on the processing

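All counts are of genes with an adjusted p below 0.05. Of 147 recomputed counts, 115 stayed within 1.5 times the value given, and these include counts of 0 that stayed 0. Of 448 recomputed single-gene fold changes 0 turned direction. Only members with an unadjusted p under 0.05 in the fit given were recomputed in this way. Their kept direction is therefore no check of direction for the other members. The 0 members called in the co-treatment experiment stayed 0 in every alternative run. The further pathway genes there were 2 with edgeR's exact test, 2 with DESeq2, 0 with library size alone, 3 with no filter on low counts and 0 to 1 with a library left out. Over 6 pre-treatment libraries, leaving out a library gave 0 to 4 members and 0 to 18 further genes, the upper values without control replicate 3.

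Over 5 pre-treatment libraries, the 4 members became 8 with edgeR's exact test, 7 with DESeq2, 2 with limma-voom, 8 with no filter on low counts and 0 to 10 with a further library left out, and the 18 further genes became 3 to 27 with a library left out. The difference between experiments gave 0 to 1 members over 12 libraries with a library left out. Over 11 libraries it gave 3 with no filter and 0 to 3 with a library left out. The cause was not tested. The calls over all genes moved too: over 5 libraries they were 6871 of 26350 genes as given, 7978 with the exact test, 7898 with DESeq2, 6720 with limma-voom, 8287 of 40962 with no filter and 1677 to 8577 with a further library left out. Upper-quartile factors also moved the median of all genes, by -0.10 on the log2 scale, and gave 3 members higher and 3 lower.

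The correlations of same-numbered libraries ran from -0.258 to 0.0808, and those of other numbers from -0.451 to 0.425. They compare deviations from means of 3 libraries, so they cannot show whether the replicate numbers pair the libraries. With the replicate block, the counts over 5 libraries were 15 members and 30 further genes, while 10754 of 26350 genes were called in all, that of the difference over 11 libraries was 4 members with 2684 of 25668 genes called, and the others stayed within 1.5 times. Not every library correlated best with its own number. Depth limits IFITM2, IFI44, IFIH1, IFIT3, MX1 and BST2, each with 1 to 8 reads in its lowest library.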
